A study of Rattus norvegicus with 8 samples.

Results

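Heat shock proteins and molecular chaperones were examined in the tibialis anterior of hyperthyroid and control rats. The members were the genes of the array's platform annotation with a single symbol beginning with Hspa, Hspb, Hspd, Hspe, Hsph, Hsp90, Dnaja, Dnajb or Dnajc, with Cct or Bag followed by a digit, and the genes Cryab, Sugt1, Tcp1 and Stip1. They comprised 81 genes of 14217 with a probe set of a single symbol, measured by 119 probe sets of 31099 on each array. Each gene was represented by its brightest probe set that passed a filter on low intensity, and 76 of the 81 were tested among 10200 genes. Dnajb3, Dnajb7, Dnajb13, Hspa1l and Hspb9 did not pass, with intensities between 0.885 and 59.7 over all arrays. Hspa8, Hsp90aa1 and Hspa1b, the constitutive HSP70, an HSP90 isoform and a copy of inducible HSP70, had only probe sets shared between several symbols and were not analysed here. The prefix also took in Hspbp1 and Hspbap1, which are a nucleotide exchange factor of HSP70 and a protein that binds a small heat shock protein, so they were kept as a class of their own.

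The tibialis anterior is a fast-twitch muscle of the lower hind limb. Hyperthyroid rats (arrays of replicates 1, 2, 3 and 5) had been injected intraperitoneally with triiodothyronine, T3, over 6 weeks, with 1 dose of 25 µg per 100 g body weight every 2 days, and were killed 24 hours after the last of them. Control rats (arrays of replicates 7, 8, 9 and 11) received no T3, and no vehicle injection is described for them. All were adult Sprague-Dawley rats, with 3 males and 1 female in each group, and each array held the RNA of 1 rat.

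Chaperones bind unfolded stretches of other proteins and help them to fold, to refold or to be handed over for degradation. HSP70 works through cycles of ATP hydrolysis in which J-domain proteins bring the client and start hydrolysis, while BAG and HSP110 proteins exchange the nucleotide and release the client. HSP90 matures kinases and hormone receptors, the ring-shaped CCT complex folds actin and tubulin, and the small heat shock proteins hold unfolding proteins without ATP. In striated muscle small heat shock proteins bind desmin, actin and titin, and several of them are more abundant in slow than in fast fibres.

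Values are array intensities on a linear scale, brought by the submitters' software to the same trimmed mean, 150.1, on every array. The array medians were nevertheless 38.8 to 42.0 in the hyperthyroid group and 43.5 to 54.9 in the control group. The 100 brightest probe sets held 22.4 ± 1.29% of the summed signal in the hyperthyroid group and 26.4 ± 0.851% in the control group (SD, n = 4 each). Tests were made with limma on log2(intensity + 3.41), so that fold changes of dim genes are understated, and p-values were adjusted over all 10200 genes. Fold changes are hyperthyroid over control, and ± on a log2 fold change is limma's standard error. The number of arrays, 4 per group, limits the precision of every value. The arrays with the highest Xist in their group, hyperthyroid replicate 1 and control replicate 11, were taken as the likely females, although no label names them. This rule picks 1 array per group whatever the Xist values, which are not given here, so the sex of these arrays is an assumption. Among the markers of other cells and fibre types, those of slow fibres differed most in level, and their values are given beside the small heat shock proteins.

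No chaperone gene passed an adjusted p of 0.05 in either direction, where 0.0686% of all genes tested were called higher and 0.0% lower. At an unadjusted p under 0.05 there were 14 of the 76 members, 18.4%, against 10.6% of all genes. They divided into 6 higher in the hyperthyroid group, 7.89% against 5.38% of all genes, and 8 lower, 10.5% against 5.21%. Such calls were more frequent among bright genes in general: 6.28% of the genes with a mean log2 intensity below 7 reached p under 0.05, against 17.0% of those between 9 and 11 and 40.8% of the 125 genes at 13 or above. Of the 23 members between 9 and 11, 9 reached it, and of the 2 at 13 or above, Cryab and Hspb6, Cryab did. In the other ranges, 1 of 15 members reached it below 7, 2 of 25 between 7 and 9 and 1 of 11 between 11 and 13. Of all genes, 11.6% reached it between 7 and 9 and 19.3% between 11 and 13. All genes at 13 or above had a median log2 fold change of -0.23. The groups did not overlap for 5 members, 6.58%, against 6.55% of all genes. Sugt1, Cct7 and Hspb8 were higher on every hyperthyroid array than on any control array, 3 members where 3.34% of all genes were, and Dnajb12 and Dnajc30 were lower, 2 members where 3.21% of all genes were. The median log2 fold change was -0.03 over the 76 members and -0.0003 over all genes, and 35 members, 46.1%, lay above 0 against 50.0% of all genes. Single arrays moved the counts: without hyperthyroid replicate 1 there were 2 higher at an unadjusted p under 0.05 and without hyperthyroid replicate 5 there were 10, while without control replicate 7 there were 4 lower, and 5 without hyperthyroid replicate 2 or 3. Centring every array on its median moved the median of all genes to 0.22 and the members' split to 14 higher and 2 lower. Relative to that shift 35 members lay above and 41 below.

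**Figure D1:**
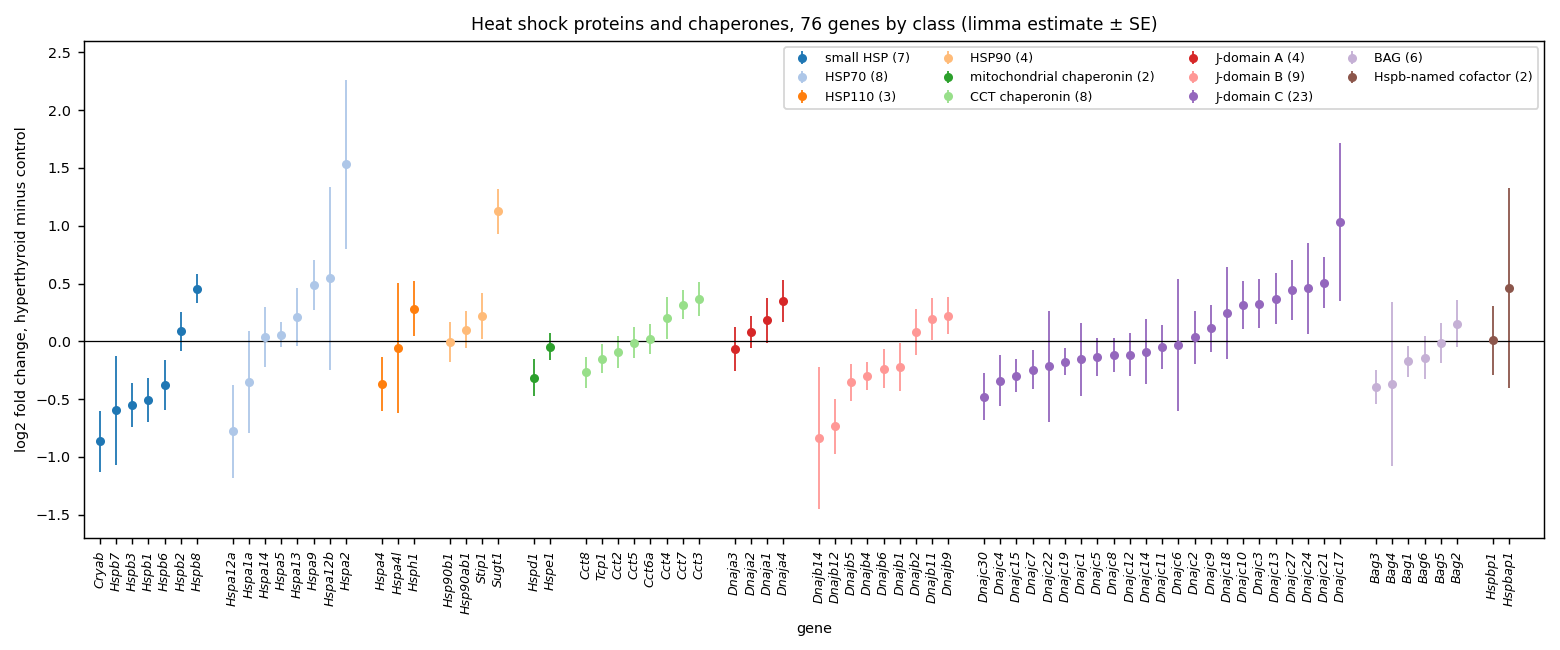
Log2 fold change, hyperthyroid over control, of each of the 76 tested chaperone genes (points), by class, with bars for limma's standard error of each gene. The small heat shock proteins have the lowest median, -0.51, and Sugt1, at 1.12, stands apart from the other members of the HSP90 class.

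Stretches of promoter are shown first because heat shock factors and the unfolded protein response act on chaperone genes through known DNA elements. The letters show where exact matches to the forms searched were found. RefSeq promoters on assembly GRCr8, from 250 bases before to 50 after the start of each gene, were found for 68 of the 81 members. The heat shock element was searched on both strands as 3 alternating arms, GAA, TTC and GAA, each set off from the next by 2 bases of any kind (N), and as the shorter 2-arm forms GAANNTTC and TTCNNGAA, both of which lie within the 3-arm form. The 3-arm form was in 5 of the 68 promoters, 7.35%, against 202 of all 27457 promoters, 0.736%. Either 2-arm form was in 19, 27.9%, against 15.4% of all promoters. The ER stress element, CCAAT and CCACG with 9 bases of any kind between them, was in 3, 4.41%, against 0.0765%. Only exact matches within these 300 bases were counted, so a promoter without a match may still hold an element in another form or place. Hspa1a, the inducible HSP70, had no match to any of these forms.

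The 5 members with the 3-arm form were Hsph1, Dnaja1, Cct4, Hspe1 and Hspd1. Hspe1 and Hspd1 are neighbours on opposite strands of chromosome 9 whose annotations overlap by 6 bases, so they share the element. The windows of 80 bases below are chr12:10427298-10427377 for Hsph1, chr5:60638374-60638453 for Dnaja1, chr14:101193027-101193106 for Cct4 and chr9:64084233-64084312 for Hspe1, all on the plus strand. Capitals mark the 3-arm matches, which in Hspe1 are 2 matches that overlap.
Hsph1: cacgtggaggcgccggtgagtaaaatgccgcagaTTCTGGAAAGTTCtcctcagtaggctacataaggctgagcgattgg
Dnaja1: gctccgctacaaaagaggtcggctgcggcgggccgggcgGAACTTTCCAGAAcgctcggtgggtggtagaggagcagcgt
Cct4: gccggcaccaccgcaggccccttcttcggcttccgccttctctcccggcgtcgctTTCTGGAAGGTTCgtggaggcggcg
Hspe1: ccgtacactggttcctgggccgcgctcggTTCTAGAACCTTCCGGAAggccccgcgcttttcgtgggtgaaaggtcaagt

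Among the small heat shock proteins and their partners, Hspb1, Hspb6, Hspb8 and Bag3 carried 2-arm forms, as did Dnajb1, a stress-inducible partner of HSP70. Cryab and Hspb2 had no entry and were not searched. The windows of Hspb1, Hspb8, Bag3 and Dnajb1 are shown, being chr12:26432367-26432446 on the minus strand for Hspb1, chr12:45837249-45837328 on the plus strand for Hspb8, chr1:192533292-192533371 on the plus strand for Bag3 and chr19:41431092-41431171 on the minus strand for Dnajb1. Capitals mark the 2-arm matches.
Hspb1: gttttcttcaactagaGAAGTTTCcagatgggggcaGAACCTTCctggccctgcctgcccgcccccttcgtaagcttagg
Hspb8: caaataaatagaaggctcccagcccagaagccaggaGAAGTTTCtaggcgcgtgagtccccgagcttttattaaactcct
Bag3: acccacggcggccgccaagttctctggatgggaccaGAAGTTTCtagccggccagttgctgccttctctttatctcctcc
Dnajb1: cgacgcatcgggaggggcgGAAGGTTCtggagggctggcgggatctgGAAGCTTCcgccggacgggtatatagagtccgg

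The 3 members with the ER stress element encode proteins of the endoplasmic reticulum: Hspa5, the HSP70 of that compartment, Hsp90b1, its HSP90, and Dnajc3, a J-domain partner of Hspa5. The windows are chr3:38452942-38453021 on the plus strand for Hspa5, chr7:23012317-23012396 on the minus strand for Hsp90b1 and chr15:102432503-102432582 on the plus strand for Dnajc3. Capitals mark a match. The promoter of Hsp90b1 held 2, of which the one nearer to the start is shown, which reads on the strand opposite to the gene.
Hspa5: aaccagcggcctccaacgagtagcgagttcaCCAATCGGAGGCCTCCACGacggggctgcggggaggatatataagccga
Hsp90b1: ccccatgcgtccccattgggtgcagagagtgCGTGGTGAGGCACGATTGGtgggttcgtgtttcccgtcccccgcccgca
Dnajc3: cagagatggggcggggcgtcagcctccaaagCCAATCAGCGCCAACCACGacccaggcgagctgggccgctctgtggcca

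The members with a 3-arm heat shock element had 0.18 as their median log2 fold change, 3 above 0 and 2 below. The 58 tested members with no exact match to it in the searched promoter had a median of -0.01, with 28 above 0 and 30 below. The intensity of Hsph1, an HSP110 that releases clients from HSP70, was 1291, 687, 610 and 627 on hyperthyroid replicates 1, 2, 3 and 5, against 652, 685, 755 and 456 on control replicates 7, 8, 9 and 11. Dnaja1, a cytosolic J-domain partner of HSP70, had 833, 475, 498 and 505 in hyperthyroid muscle, against 503, 407, 500 and 588 in control muscle. In both genes hyperthyroid replicate 1 was far above the other arrays of its group, and the remaining hyperthyroid arrays lay within the control range. The log2 fold changes were 0.28 ± 0.24 for Hsph1 and 0.18 ± 0.20 for Dnaja1 (limma adjusted p = 0.71 and 0.788). That of Hsph1 was 0.03 without hyperthyroid replicate 1 and -0.12 without the arrays highest in Xist. Hspe1, the lid of the mitochondrial chaperonin, had 5338, 4531, 5103 and 4955 in hyperthyroid muscle, against 4666, 5506, 4906 and 5508 in control muscle, and the arrays were interleaved.

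The small heat shock proteins differed in direction among themselves. Of the 7 tested, 5 lay below 0 in log2 fold change and 2 above, and the median was -0.51, which was -0.22 without hyperthyroid replicate 5 and -0.27 without control replicate 7. Cryab, αB-crystallin, which protects desmin and titin, had intensities of 11584, 9874, 5761 and 4312 on hyperthyroid replicates 1, 2, 3 and 5, against 15904, 11114, 11585 and 15294 on control replicates 7, 8, 9 and 11. Its mean was 7883 ± 3412 in hyperthyroid muscle, against 13474 ± 2473 in control muscle (SD, n = 4 each), and hyperthyroid replicate 1 reached the lower control values. Its log2 fold change was -0.87 ± 0.26 (limma adjusted p = 0.278, unadjusted p = 0.00609).

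Hspb1, the rodent HSP25 that caps actin filaments, had 1669, 990, 1104 and 1480 in hyperthyroid muscle, against 2093, 1531, 1520 and 2288 in control muscle. Its ranges touched only through hyperthyroid replicate 1, and its log2 fold change was -0.51 ± 0.19 (limma adjusted p = 0.382). Hspb3, which forms a muscle complex with Hspb2, had 1034, 1125, 1701 and 1662 in hyperthyroid muscle, against 2033, 2252, 1497 and 2243 in control muscle. Here control replicate 9 lay among the hyperthyroid arrays, and the log2 fold change was -0.55 ± 0.19 (limma adjusted p = 0.336). Hspb2 itself did not follow its partner, with 295 to 404 in hyperthyroid muscle, against 263 to 351 in control muscle, and a log2 fold change of 0.09 ± 0.17. Hspb2 and Cryab are neighbours on chromosome 8 whose annotations overlap by 1331 bases.

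Hspb6, HSP20, had 7241, 9166, 9259 and 5454 in hyperthyroid muscle, against 14012, 8423, 7212 and 11151 in control muscle, a log2 fold change of -0.38 ± 0.21, or -0.21 without control replicate 7 and -0.22 without hyperthyroid replicate 5. Hspb7, a small heat shock protein of heart and skeletal muscle that binds filamin, had 412, 422, 215 and 111 in hyperthyroid muscle, against 760, 344, 159 and 526 in control muscle, a log2 fold change of -0.60 ± 0.47 that ran from -1.01 without control replicate 9 to -0.20 without hyperthyroid replicate 5. In Hspb6 and Hspb7 the highest values were those of control replicates 7 and 11, and the other controls lay within the hyperthyroid range. A second kept probe set of Hspb7 had 126 to 186 in hyperthyroid muscle, against 93.7 to 179 in control muscle.

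Hspb8 stood at the other end of the class. It forms with Bag3 the complex that hands damaged filamin and other clients to autophagy in muscle. Its intensity was 3432, 3221, 3052 and 3590 in hyperthyroid muscle, against 2237, 2759, 2674 and 2071 in control muscle, and the groups did not overlap. The log2 fold change was 0.46 ± 0.13 (limma adjusted p = 0.251, unadjusted p = 0.00348), and a second kept probe set gave 0.33 ± 0.17. Bag3 differed in the opposite direction, with 1050, 793, 756 and 836 in hyperthyroid muscle, against 1327, 1122, 982 and 1086 in control muscle, a log2 fold change of -0.40 ± 0.15 (limma adjusted p = 0.379). Hyperthyroid replicate 1 alone reached into the control range of Bag3.

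**Figure D2:**
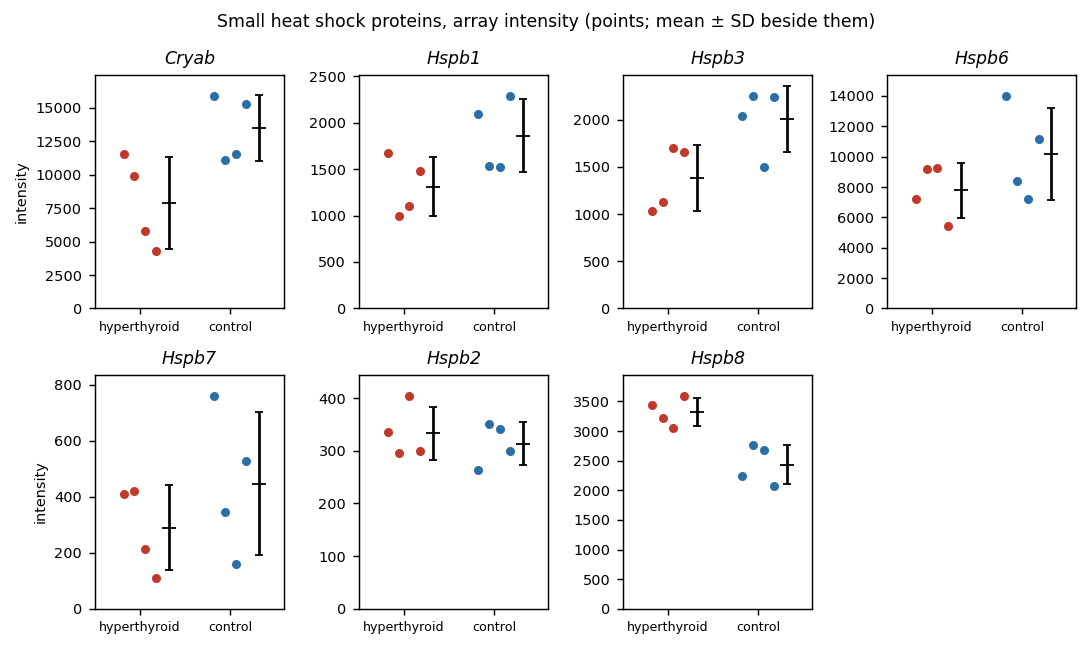
Intensity of the 7 small heat shock proteins on each array (points), hyperthyroid left and control right, with mean ± SD (n = 4 each) beside the points. Hspb8 is the only one of the 7 whose groups do not overlap, and it is higher in the hyperthyroid group.

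Slow-fibre transcripts were also lower in the hyperthyroid group, and an association with the small heat shock proteins was not tested. All 9 tested slow-fibre markers, which are contractile and calcium-handling genes, had negative log2 fold changes, the median being -2.72. The lowest intensity among them, on a hyperthyroid array, was 1.33, below the pseudocount of 3.41. Values this close to the floor leave the size of the largest fold changes uncertain. Standard errors of the 9 markers reached 1.47, and the smallest limma adjusted p among these markers was 0.266. Their summed intensity was 1538 to 9156 on the hyperthyroid arrays, against 4625 to 43863 on the control arrays. Control replicates 7 and 11 held 43863 and 30185, while control replicates 8 and 9, with 6039 and 4625, lay within the hyperthyroid range. In bulk muscle fewer slow fibres and less RNA per slow fibre cannot be told apart.

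Without control replicates 7 and 11 the median log2 fold change of the small heat shock proteins was -0.06. That of Cryab was -0.64 in that fit, that of Hspb3 -0.45 and that of Hspb1 -0.25. Hspb6 had -0.03 and Hspb7 0.11, while Hspb8 had 0.29. The same 2 control arrays also held the most Schwann cell and smooth muscle signal. Schwann cell markers, 5 of 7 tested, summed to 652 to 1161 on hyperthyroid arrays, against 430 to 3259 on control arrays, and the 6 smooth muscle markers to 1258 to 1459, against 1580 to 2767. Smooth muscle also expresses Hspb6 and Hspb1. The part of either cell type in these differences was not tested. Fast-fibre markers, 9 of 10 tested, likewise all had negative log2 fold changes (median -0.40) and summed to 258807 to 327548 on hyperthyroid arrays, against 350750 to 391219 on control arrays.

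**Figure D3:**
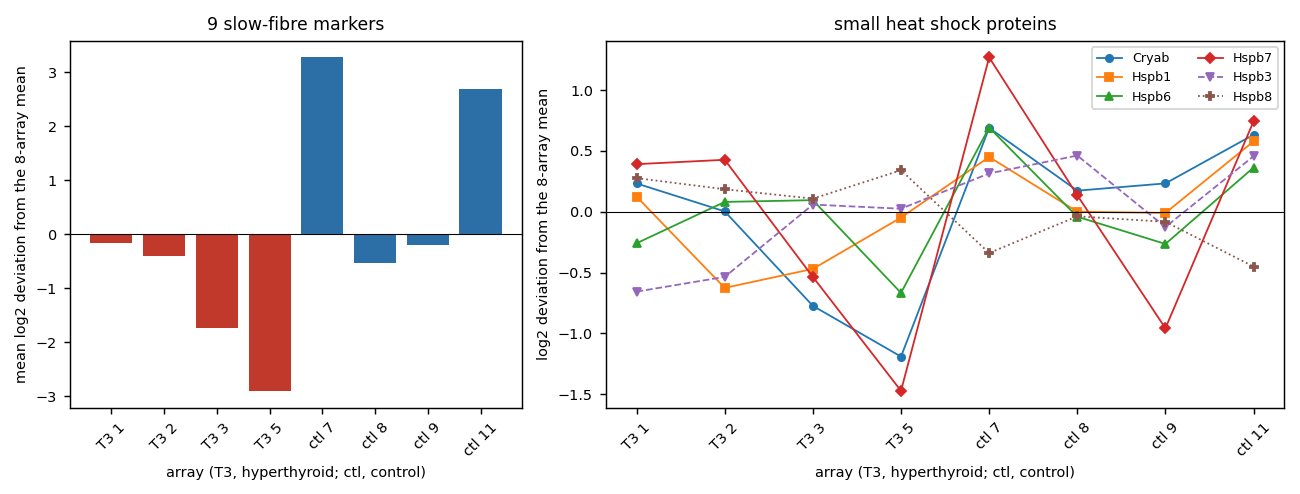
Left, mean log2 deviation of the slow-fibre markers from the 8-array mean on each array (bars), hyperthyroid (T3) red and control (ctl) blue. Right, log2 deviation of Cryab, Hspb1, Hspb3, Hspb6, Hspb7 and Hspb8 from the 8-array mean on the same arrays (lines). Control replicates 7 and 11 have mean slow-fibre deviations of 3.28 and 2.68, and the other 6 arrays run from -2.90 to -0.17.

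The smallest p among the members was that of Sugt1, an HSP90 co-chaperone required for kinetochore assembly and for the stability of innate immune receptors. Its intensity was 1470, 902, 1822 and 1768 on hyperthyroid replicates 1, 2, 3 and 5, against 632, 667, 675 and 659 in control muscle. Every hyperthyroid array lay above every control array, and the hyperthyroid arrays were far more spread, at 1491 ± 422 against 658 ± 19.0 (SD, n = 4 each). The log2 fold change was 1.12 ± 0.20, or 2.18-fold on the scale with the pseudocount (limma adjusted p = 0.0741), and Sugt1 has no second probe set. Without hyperthyroid replicate 2, the lowest of its group, the limma adjusted p was 0.00692, and over all alternatives it ran from 0.00692 to 0.413. It was also under 0.05 with arrays centred on their medians, 0.0279, and with no filter on low values, 0.0415.

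The HSP90 proteins themselves had overlapping ranges in both groups. Hsp90ab1, the constitutive cytosolic HSP90, had 5263 to 6677 in hyperthyroid muscle, against 4230 to 7285 in control muscle, a log2 fold change of 0.10 ± 0.16. A second kept probe set of Hsp90ab1 had 675 to 951, against 666 to 1527, and gave -0.23 ± 0.22. Hsp90b1 of the endoplasmic reticulum had 565 to 948, against 577 to 800, and -0.01 ± 0.18. Stip1, the adaptor that joins HSP70 to HSP90, had 608 to 844 in hyperthyroid muscle, against 433 to 848 in control muscle, and 0.22 ± 0.20. With Sugt1 the class of 4 had a median of 0.16, with 3 above 0. Sugt1 was thus the only one of the 4 without overlap.

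The HSP70 family had 8 tested members, 6 above and 2 below 0, with a median log2 fold change of 0.13. The inducible Hspa1a had 332, 189, 190 and 103 in hyperthyroid muscle, against 635, 154, 135 and 247 in control muscle. A single control array, replicate 7, exceeded all others. Its log2 fold change was -0.35 ± 0.44, but 0.12 without control replicate 7 and 0.37 without control replicates 7 and 11.

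Hspa5, a marker of the unfolded protein response, had 2329, 2446, 2326 and 2364 in hyperthyroid muscle, against 2464, 2173, 2336 and 2145 in control muscle. All arrays lay close together, and the log2 fold change was 0.06 ± 0.11 (limma adjusted p = 0.90). Hspa9, mortalin, the motor that pulls proteins into the mitochondrial matrix, had 1637, 1326, 968 and 814 in hyperthyroid muscle, against 1017, 824, 846 and 624 in control muscle. Its log2 fold change was 0.49 ± 0.22 (limma adjusted p = 0.453), or 0.31 without hyperthyroid replicate 1, and the other 3 kept probe sets gave 0.17, -0.37 and -0.53, so the probe sets of Hspa9 disagreed in direction. Hspa2, a paralogue best known from male germ cells, had 34.5 to 98.7 in hyperthyroid muscle, against 1.95 to 61.0 in control muscle, and 1.53 ± 0.73. Hspa12a, a distant relative, had 32.6 to 66.9, against 55.6 to 157, and -0.78 ± 0.40. Both had larger standard errors than Hspa5 and Hspa9. Of the remaining members of the family, Hspa12b had 0.55 ± 0.79, Hspa13 0.21 ± 0.25 and Hspa14 0.03 ± 0.26.

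Of the HSP110 proteins, Hspa4 had a log2 fold change of -0.37 ± 0.23 and Hspa4l one of -0.06 ± 0.56, and with Hsph1 the class median was -0.06, or -0.32 without control replicate 9. Both members of the mitochondrial chaperonin were below 0, with a median of -0.18, but 0.04 with arrays centred on their medians. Hspd1, the HSP60 ring, had 3597, 3846, 3590 and 2406 in hyperthyroid muscle, against 4286, 4001, 4762 and 3517 in control muscle. Only control replicate 11 lay below hyperthyroid values, and the log2 fold change was -0.32 ± 0.16 (limma adjusted p = 0.513), or -0.16 without hyperthyroid replicate 5. That of its lid Hspe1 was -0.05 ± 0.11.

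The 8 subunits of the CCT ring divided evenly, 4 above and 4 below 0, with a median of 0.0038, or 0.22 with centred arrays. Cct7 had 1114, 995, 882 and 1000 in hyperthyroid muscle, against 779, 835, 813 and 767 in control muscle, without overlap and with a log2 fold change of 0.32 ± 0.13 (limma adjusted p = 0.412). Cct3 had 1954, 1547, 1591 and 1280, against 1052, 1285, 1274 and 1282, and 0.37 ± 0.15. Its lowest hyperthyroid value, 1280, was within the range of the control arrays. Cct8, in the other direction, had 1485, 1095, 1265 and 1130 in hyperthyroid muscle, against 1522, 1527, 1572 and 1345 in control muscle, and -0.27 ± 0.13. Cct2, Cct4, Cct5, Cct6a and Tcp1 had log2 fold changes between -0.15 and 0.20. Relative to the median of all genes, with or without centring, subunits of the same ring thus lay on both sides.

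The J-domain proteins were the largest class, with 36 tested members, 16 above and 20 below 0, and a median of -0.06. The 4 A-type members had a median of 0.13, the 9 B-type members -0.24 and the 23 C-type members -0.05. With centred arrays the B-type median was -0.02 and the C-type median 0.17. Among the A-type, Dnaja4 had 883 to 1532 in hyperthyroid muscle, against 734 to 1089 in control muscle, and 0.35 ± 0.18. Dnaja2 of the cytosol and Dnaja3 of the mitochondria had 0.08 ± 0.14 and -0.07 ± 0.19.

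Of the B-type, Dnajb4 and Dnajb5, cytosolic partners of HSP70 in muscle and other tissues, had lower values in hyperthyroid muscle. Dnajb4 had 1654, 1361, 1346 and 1441, against 1943, 1842, 1773 and 1581 in control muscle, a log2 fold change of -0.30 ± 0.12 (limma adjusted p = 0.436). Dnajb5 had 438, 353, 315 and 398, against 574, 453, 458 and 437 in control muscle, and -0.35 ± 0.16. In each gene 1 hyperthyroid array, replicate 1, reached into the control range. Dnajb12, a J-domain protein of the endoplasmic reticulum membrane that serves degradation, had 119, 87.4, 69.2 and 111 in hyperthyroid muscle, against 146, 148, 158 and 190 in control muscle. The groups did not overlap and the log2 fold change was -0.73 ± 0.24 (limma adjusted p = 0.306), but a second kept probe set had 79.9 to 126, against 49.2 to 105, and gave 0.37 ± 0.30. Dnajb6, mutated in a human limb-girdle muscular dystrophy, had 1869 to 3288 in hyperthyroid muscle, against 2373 to 3071 in control muscle, and -0.24 ± 0.17. The stress-inducible Dnajb1 had 108 to 163, against 140 to 182, and -0.22 ± 0.21, while Dnajb2 had 0.08 ± 0.20 and Dnajb14 -0.84 ± 0.61.

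The C-type members are diverse in site and task. Dnajc21, whose yeast relative acts in ribosome assembly, had 786, 870, 649 and 562 in hyperthyroid muscle, against 434, 561, 721 and 345 in control muscle, and 0.51 ± 0.22 (limma adjusted p = 0.441), or 0.33 without control replicate 11. Dnajc30, a mitochondrial protein that serves the turnover of complex I subunits, had 142, 111, 155 and 146 in hyperthyroid muscle, against 197, 179, 235 and 168 in control muscle. The groups did not overlap for Dnajc30 and its log2 fold change was -0.48 ± 0.20 (limma adjusted p = 0.44). The import motor members Dnajc15 and Dnajc19 had -0.30 ± 0.14 and -0.18 ± 0.12. Dnajc3 and Dnajc10, which work with Hspa5 in the endoplasmic reticulum, had 0.33 ± 0.21 and 0.31 ± 0.20, and Dnajb9 and Dnajb11 of the same compartment 0.22 ± 0.16 and 0.20 ± 0.18. None of these 4 reached an unadjusted p of 0.05. The other C-type members, also none of them at that p, ran from -0.34 for Dnajc4 to 1.03 for Dnajc17, a dim gene with a standard error of 0.68.

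Of the 6 BAG cochaperones, 5 were below 0, with a median of -0.16 that was 0.06 with centred arrays. Apart from Bag3, their log2 fold changes were -0.17 ± 0.14 for Bag1, 0.15 ± 0.21 for Bag2, and between -0.37 and -0.02 for Bag4, Bag5 and Bag6. Hspbp1 and Hspbap1 had 0.01 ± 0.30 and 0.46 ± 0.87.

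**Figure D4:**
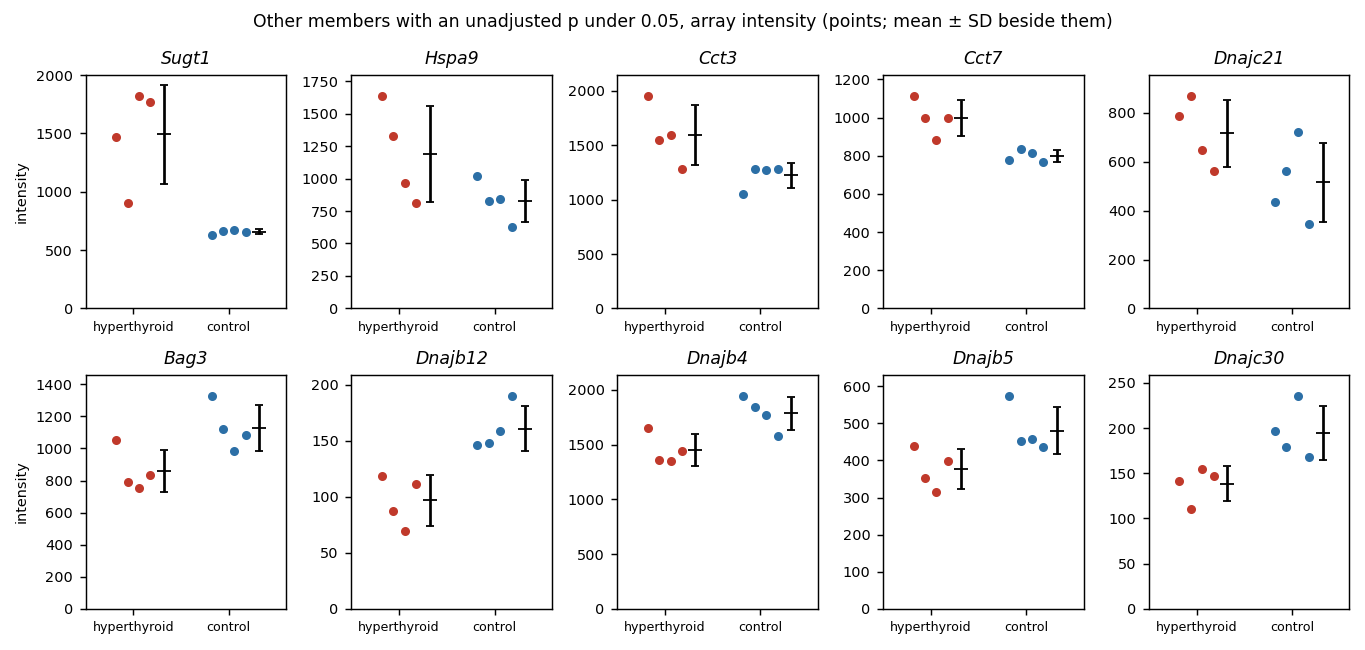
Intensity on each array (points) of the members outside the small heat shock proteins that were chosen by an unadjusted limma p under 0.05. Hyperthyroid is left and control right, with mean ± SD (n = 4 each). Sugt1 and Cct7 are higher without overlap in hyperthyroid muscle and Dnajb12 and Dnajc30 lower without overlap.

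Where a gene had several kept probe sets, they did not always agree in sign. Of 23 such members, all kept probe sets lay on the same side of 0 in 12 and on both sides in 11. Single arrays also carried much of the members' order. Hyperthyroid replicate 1 was the highest of its group for 39 of the 76 members, 51.3%, against 28.2% of all genes, and control replicate 11 was the lowest of its group for 35 of the 76, where it was the lowest for 27.2% of all genes. These are the arrays highest in Xist in their groups, but other arrays departed from the share of all genes as well. Hyperthyroid replicate 5 was the highest of its group for 7.89% of the members, against 26.4% of all genes. Control replicate 9 was the highest of its group for 35.5% of the members, against 25.3% of all genes. A link with sex was not tested.

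**Figure D5:**
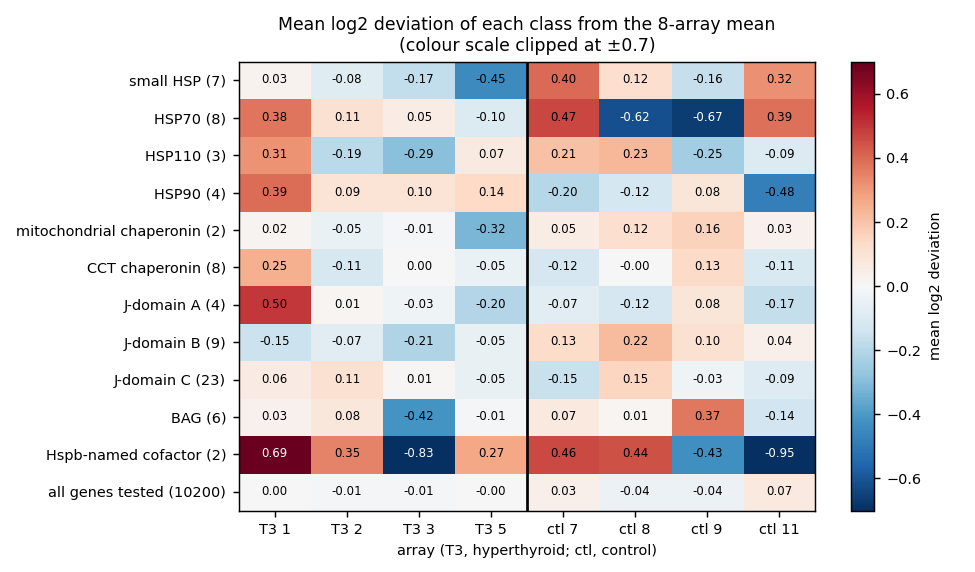
Mean log2 deviation of each chaperone class from the 8-array mean on each array, with the number of members in brackets, red for higher and blue for lower, hyperthyroid (T3) left of the line and control (ctl) right. The small heat shock proteins are highest on control replicates 7 and 11, at 0.40 and 0.32, and lowest on hyperthyroid replicate 5, at -0.45.

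Genes that work with the chaperones were described from further lists, and none passed an adjusted p of 0.05 in limma. Of all genes tested, 10.6% had an unadjusted p under 0.05 and 6.55% had groups that did not overlap. Of the heat shock factors and their inhibitor Hsbp1, 4 of 5 were tested, with Hsf1 at -0.02 ± 0.22 and Hsf2 at 0.43 ± 0.24 and none at an unadjusted p under 0.05. Among 23 tested co-chaperones of HSP90 and HSP70 outside the members, 10 lay above and 13 below 0, with a median of -0.05. Cdc37, which brings kinases to HSP90, had 0.41 ± 0.14 with no overlap between groups, and Itgb1bp2, melusin, a muscle chaperone, had -0.48 ± 0.19. These were the only 2 of the 23 at an unadjusted p under 0.05, while Unc45b, the myosin chaperone, had -0.21 ± 0.12 and was lower with no overlap between groups.

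The 29 tested genes of endoplasmic reticulum folding and the unfolded protein response had a median of 0.10, with 16 above and 13 below 0 and none at an unadjusted p under 0.05. Xbp1 and Atf4, transcription factors of that response, had -0.16 ± 0.14 and -0.09 ± 0.17. Of 13 mitochondrial chaperones and proteases outside the members, 5 lay above 0 and 8 below, with a median of -0.08. Timm10, which escorts proteins between the membranes, had 0.39 ± 0.16, and the protease Yme1l1 0.37 ± 0.16. Both reached an unadjusted p under 0.05, as 10.6% of all genes did. Of 13 prefoldin subunits and CCT cofactors, Pfdn1 and Pfdn5 did so too, at 0.36 ± 0.14 and 0.41 ± 0.16, with 6 above and 7 below 0 and a median of -0.01. The 6 tested genes of HSP70-linked autophagy had a median of -0.03, with 2 above and 4 below 0 and none at an unadjusted p under 0.05, though Ubqln1, a ubiquitin-binding shuttle, was lower with no overlap, at -0.25 ± 0.14. Immediate-early genes, which respond to stress and handling, had a median of -0.15 over 8 tested and summed to 1056 to 1534 on hyperthyroid arrays, against 1204 to 2090 on control arrays. Of these only Ier2, a dim gene, reached an unadjusted p under 0.05, at -1.41 ± 0.61.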

How the data were processed

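The deposited file gives linear intensities for each array. The submitters' processing notes name GCOS, Affymetrix's own program, with no version or setting. Label was incorporated into cRNA primed from the poly(A) tail, per the labels' protocols, which ties signal to the 3′ end. Of 31099 probe sets, 57 were controls, 20826 had 1 symbol, 436 several and 9780 none. Entrez identifiers matched 20758 to RefSeq genes (GRCr8), including all 119 of the members, and no symbol changed.

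Intensities were analysed as log2(intensity + 3.41), the 10th percentile being the pseudocount. Probe sets were kept above the 40th percentile of the mean log2 value (4.69, an intensity of about 22.4), leaving 18625 and 10200 genes, each represented by its brightest kept probe set. Tests used limma 3.58.1 in R 4.3.3 (lmFit, eBayes with a variance trend, two-sided, Benjamini-Hochberg at 0.05). The script was tested on simulated data. P-values measure spread between the 8 rats. No replicate number occurs in both groups, so pairing was not fitted. The members, classes and gene lists were chosen with earlier results of these data known. Named genes were members at an unadjusted p under 0.05, the brightest member of each class, a fixed set of well-known chaperones whatever their values, and list genes at an unadjusted p under 0.05. Fibre and cell type markers were given by list and not named. Hspa2, Hspa12a, Dnaja4, Cct8, Dnajc17 and the other genes outside this rule were picked with their values in view. The alternatives tried were quantile normalization, centring on medians, a pseudocount at the 25th percentile, a floor at the 2nd, no filter, a filter at the 60th, no variance trend, the mean of a gene's probe sets, each array left out, and control replicates 7 and 11 or the arrays highest in Xist left out together.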

Additional observations from a re-analysis of the deposited data

Results flagged for a closer look

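Within 6 of the 152 groups of 4 arrays examined for the members, a single array stood far from the other 3 (Dixon's ratio), where chance gives about 1 group in 20. In the hyperthyroid group replicate 1 was high for Dnaja1, at 833 with the others at 475 to 505, a ratio of 0.891. It was also high for Hsph1, at 1291 with the others at 610 to 687, a ratio of 0.843, and for Hspa13, at 268 with the others at 145 to 161, a ratio of 0.838. Hyperthyroid replicate 5 was low for Hspd1, at 2406 with the others at 3590 to 3846, a ratio of 0.853. Control replicate 7 was low for Cct3, at 1052 with the others at 1274 to 1285, a ratio of 0.957. Control replicate 11 was low for Dnajc10, at 320 with the others at 497 to 515, a ratio of 0.926.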

How the results depend on the processing

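No paired analysis was possible because the groups share no replicate number. Of 32 named members, 18 kept their direction under all 18 alternatives, and Sugt1 was the only one called under any. It was the 1 member called higher with centring, with no filter and without hyperthyroid replicate 2. Members called higher ran from 0 to 1 with single arrays left out, and none was called lower. At an unadjusted p under 0.05 the count of members higher was 14 with centring, 2 without the variance trend, 3 without control replicates 7 and 11, and 2 without the arrays highest in Xist, and 2 to 10 with single arrays left out. The count lower was 2 with centring and 5 without the trend, and 4 to 10 with single arrays left out. With centring, which moved the median of all genes to 0.22, the class medians were 0.38 for HSP90, 0.039 for the mitochondrial chaperonin, 0.22 for CCT, -0.016 for J-domain B, 0.17 for J-domain C, 0.063 for BAG and 0.19 for all members. Without control replicates 7 and 11 they were -0.063 for small heat shock proteins, -0.083 for HSP90 and -0.16 for J-domain C, and without the arrays highest in Xist -0.055 for HSP90.

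With single arrays left out the class medians ran from -0.60 to -0.22 for small heat shock proteins, -0.02 to 0.21 for HSP70, -0.32 to 0.18 for HSP110, 0.01 to 0.30 for HSP90, -0.22 to -0.10 for the mitochondrial chaperonin, -0.07 to 0.08 for CCT, -0.01 to 0.19 for J-domain A, -0.31 to -0.20 for J-domain B, -0.07 to -0.0033 for J-domain C, -0.24 to -0.05 for BAG, -0.11 to 0.55 for the Hspb-named cofactors and -0.05 to 0.01 for all members.

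Log2 fold changes that changed sign with centring were those of Cct5 (0.21), Dnajc19 (0.044), Hsp90b1 (0.21), Hspe1 (0.17, and 0.021 with quantile normalization) and Tcp1 (0.069). With the mean of all probe sets they were those of Cct5 (0.11), Hsp90ab1 (-0.064) and Hspa9 (-0.062). Without control replicates 7 and 11 they were those of Dnaja2 (-0.091), Hsp90ab1 (-0.13), Hspa1a (0.37), Hspb7 (0.11), Hspbp1 (-0.074) and Stip1 (-0.042). Without the arrays highest in Xist they were those of Dnaja2 (-0.063), Hsp90ab1 (-0.084), Hspbp1 (-0.29), Hsph1 (-0.12) and Stip1 (-0.026). The cause was not tested for any of them. With single arrays left out the sign changed for 7 members, with ranges of -0.10 to 0.057 for Cct5, -0.0081 to 0.26 for Dnaja1, -0.0032 to 0.17 for Dnaja2, -0.029 to 0.23 for Hsp90ab1, -0.15 to 0.10 for Hsp90b1, -0.62 to 0.12 for Hspa1a and -0.17 to 0.23 for Hspbp1. Stip1 ran from 0.05 to 0.37, being lowest without control replicate 11, and Dnajb6 from -0.40 to -0.13, being lowest without hyperthyroid replicate 3.

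The number of arrays, 4 per group, limits every value. The median of the small heat shock proteins, -0.51 over all arrays, was -0.22 without hyperthyroid replicate 5 and -0.06 without control replicates 7 and 11. Without those controls Cryab, Hspb1, Hspb3 and Hspb6 were still below 0, while Hspb7 and Hspb8 were above. Dim members carry the largest errors, and detection calls were not used.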
